A study of Mus musculus with 8 samples.

Results

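Ang4, Itln1, and Retnlb encode antimicrobial effector proteins of secretory cells in the gut epithelium, and Il13ra1, Il4ra, and Stat6 encode the receptor chains and the transcription factor through which interleukin-4 and interleukin-13 (IL-4 and IL-13) reach the nucleus. These 6 genes were represented by 14 of the 45037 probe sets of the array and were 6 of the 18193 genes named there. A probe set was taken if the array annotation gave it exactly 1 gene symbol and that symbol was 1 of the 6. The genes were chosen with their differences on these same 8 arrays known, so their differences between groups are given as a description and were not tested.

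The samples were colonic epithelial cells of 4 mice colonized with BTΔMAFF and 4 mice colonized with BTWT, with 1 array per mouse. BTΔMAFF is a deletion mutant of the gut symbiont Bacteroides thetaiotaomicron (B. theta) that lacks maffC and maffD of the MAFF locus, and BTWT is the WT strain. All mice were male SPF-Abx mice, that is, specific pathogen-free WT animals that received metronidazole and ciprofloxacin before colonization at 8 wk of age, and cells were taken at 12 wk of age, 4 wk after colonization. Living EpCAM+ CD45- cells, that is, epithelial cells without the leukocyte marker, were sorted, and no array of mice without B. theta was analysed here. The antibiotics do not leave the gut germ free, so both strains lived among other bacteria. MAFF deletion is represented by 1 mutant strain. Which mice shared a cage or a litter is not given in the sources used here, so a cage effect and the effect of the strain cannot be told apart. The question put by the comparison is how the epithelium differs when the colonizing bacterium lacks MAFF.

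IL-13 and IL-4 are made in the gut mainly by innate lymphoid cells, T helper cells, and other leukocytes, often after epithelial cells release the alarmins IL-25, IL-33, or TSLP. Both cytokines act on a receptor of IL-13Rα1 and IL-4Rα, whose Janus kinases phosphorylate STAT6, and in mice infected with worms this pathway drives goblet and Paneth cells to express genes such as Retnlb, Ang4, and Itln1. Ang4 is a ribonuclease of the angiogenin family that kills bacteria, Itln1 is a lectin that binds glycans of microbial surfaces, and Retnlb (RELMβ) is a small secreted protein of goblet cells that harms Gram-negative bacteria.

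The promoters of the 2 effector genes with the largest differences are shown because STAT proteins bind DNA at the palindrome TTCNNNGAA, and STAT6 prefers a longer form of it with 1 more base of any kind between TTC and GAA. Each sequence is the RefSeq window of 250 bases before and 50 after a start of the gene in build GRCm38.p6. It runs 5′ to 3′ on the strand of the gene, and capitals mark a match. For Itln1 and Stat6 the start used is not the outermost base of the gene, which is chr1:171535325 for Itln1 and chr10:127642955 for Stat6. The Ang4 window is chr14:51773541-51773840 and the Itln1 window is chr1:171535245-171535544, both on the minus strand.
Ang4: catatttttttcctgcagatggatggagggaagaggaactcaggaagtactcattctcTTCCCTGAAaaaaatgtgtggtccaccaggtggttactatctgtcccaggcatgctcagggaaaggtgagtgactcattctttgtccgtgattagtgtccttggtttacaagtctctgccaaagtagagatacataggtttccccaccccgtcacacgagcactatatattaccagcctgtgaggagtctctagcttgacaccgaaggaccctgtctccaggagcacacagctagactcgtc
Itln1: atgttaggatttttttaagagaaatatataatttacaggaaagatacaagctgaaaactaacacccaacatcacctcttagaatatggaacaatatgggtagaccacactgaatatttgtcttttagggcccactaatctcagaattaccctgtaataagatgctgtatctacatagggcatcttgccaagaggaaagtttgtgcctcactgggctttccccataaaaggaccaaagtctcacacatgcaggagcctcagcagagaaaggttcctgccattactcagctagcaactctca
The Ang4 window held 1 match to TTCNNNGAA, which read TTCCCTGAA and began 192 bases before the start, and the Itln1 window held 0. Neither window held the longer form, and neither did the windows of Il13ra1, Il4ra, and Stat6, which held 0 matches to TTCNNNGAA as well. Retnlb was not among the 5 of 6 genes found in the promoter table. Of 32851 promoter windows of the same length, 8.3% held TTCNNNGAA and 6.95% held the longer form on either strand, since the fixed letters of both motifs read the same on both strands, and matches to the 2 motifs cannot start at the same base. A match describes the letters only and says nothing about binding.

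The authors centred the log2 values of a probe set on its median over 8 arrays, so 0 is the median mouse, 1 unit is a 2-fold difference, and the absolute level of a gene is not known. With 8 values, the 2 middle mice are equally far above and below 0 by construction. Among all 45037 probe sets, 0 (0%) passed an adjusted p of 0.05 (limma with Benjamini-Hochberg adjustment), and 1288 (2.86%) were higher and 1007 (2.24%) lower in BTΔMAFF at an unadjusted p under 0.05. The test named in the methods gave 0 adjusted calls as well, and 970 higher and 751 lower probe sets unadjusted. Principal component 1, with 29.4% of the variance, set BTΔMAFF replicate 4 and BTWT replicate 2 apart from the remaining 6 arrays. Results for the effector genes are therefore given with and without both arrays.

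Ang4 had the largest difference of all 45037 probe sets, and both of its probe sets were far higher in BTΔMAFF-colonized mice. With probe set 1438364_x_at, Ang4 was at 5.08, 0.41, 4.01, and 4.13 in BTΔMAFF replicates 1 to 4 and at -6.09, -6.08, -0.41, and -2.05 in BTWT replicates 1 to 4. The groups did not overlap, but they nearly met: BTΔMAFF replicate 2 and BTWT replicate 3 were the 2 middle mice, 0.81 apart, whereas the values of all mice spanned 11.2 log2 units. The mean was 3.41 ± 2.06 in BTΔMAFF and -3.66 ± 2.89 in BTWT (SD, n = 4 each), a difference of 7.06 (standard error 1.64) or 134-fold. How far any of these values lay above background is not known.

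The other Ang4 probe set, 1440832_at, gave the same order of the 8 mice. It was at 5.68, 0.77, 4.29, and 5.61 in BTΔMAFF replicates 1 to 4 and at -4.50, -2.20, -0.77, and -1.69 in BTWT replicates 1 to 4. Its means were 4.09 ± 2.30 in BTΔMAFF and -2.29 ± 1.59 in BTWT (SD, n = 4 each), a difference of 6.38 (standard error 1.29) or 83.3-fold. BTWT replicates 1 and 2 differed between the probe sets: they were level with each other on the first, whereas replicate 2 was well above replicate 1 on the second. The suffix of 1438364_x_at marks probes that can also bind transcripts of related genes, and 1440832_at has no such suffix. By SD over the 8 arrays, with groups ignored, the 2 Ang4 probe sets also held ranks 1 and 2 of 45037.

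Itln1 was high in 3 of the 4 BTΔMAFF mice and even across BTWT mice. On its only probe set, 1418165_at, it was at 4.48, 0.05, 2.13, and 3.01 in BTΔMAFF replicates 1 to 4 and at -0.05, -0.10, -0.16, and -0.10 in BTWT replicates 1 to 4. BTΔMAFF replicate 2 stood only 0.10 above the highest BTWT mouse, a gap as small as the range of 0.11 among the BTWT mice themselves. The mean was 2.42 ± 1.85 in BTΔMAFF and -0.10 ± 0.05 in BTWT (SD, n = 4 each), a difference of 2.52 (standard error 0.86) or 5.74-fold, at rank 5 of the probe sets ordered from the highest to the lowest signed difference. Without BTΔMAFF replicate 2 it was 3.31, and without BTΔMAFF replicate 1 it was 1.83.

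Retnlb was less clear. Its probe set 1418368_at was at 1.63, -0.43, 0.12, and 0.40 in BTΔMAFF replicates 1 to 4 and at 0.14, -1.63, -0.12, and -1.69 in BTWT replicates 1 to 4. The groups overlapped, since BTΔMAFF replicate 2 lay below BTWT replicates 1 and 3, and the BTWT mice fell into a pair near 0 and a pair near the low end. The mean was 0.43 ± 0.87 in BTΔMAFF and -0.83 ± 0.97 in BTWT (SD, n = 4 each), a difference of 1.26 (standard error 0.60) or 2.39-fold, at rank 76 in the same signed order.

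Of the 4 effector probe sets, 3 were without overlap and higher in BTΔMAFF, against 1.56% of all 45037 probe sets. The same 3 had a mean difference over 2 log2 units, as 0.0377% of all probe sets had in that direction. Both counts follow from how the genes were chosen. Leaving out single arrays left the differences of Ang4 between 6.25 and 8.15 on the first probe set and between 5.64 and 7.49 on the second, and those of Retnlb between 0.86 and 1.58. Without both arrays that stood apart, the differences were 6.01 and 5.90 for Ang4, 2.32 for Itln1, and 1.00 for Retnlb. Weighting the arrays by their residual spread gave BTΔMAFF replicate 2 a weight of 4.36 and BTWT replicate 3 a weight of 4.68, and the differences were then 3.74 and 3.91 for Ang4, 1.37 for Itln1, and 0.41 for Retnlb.

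**Figure D1:**
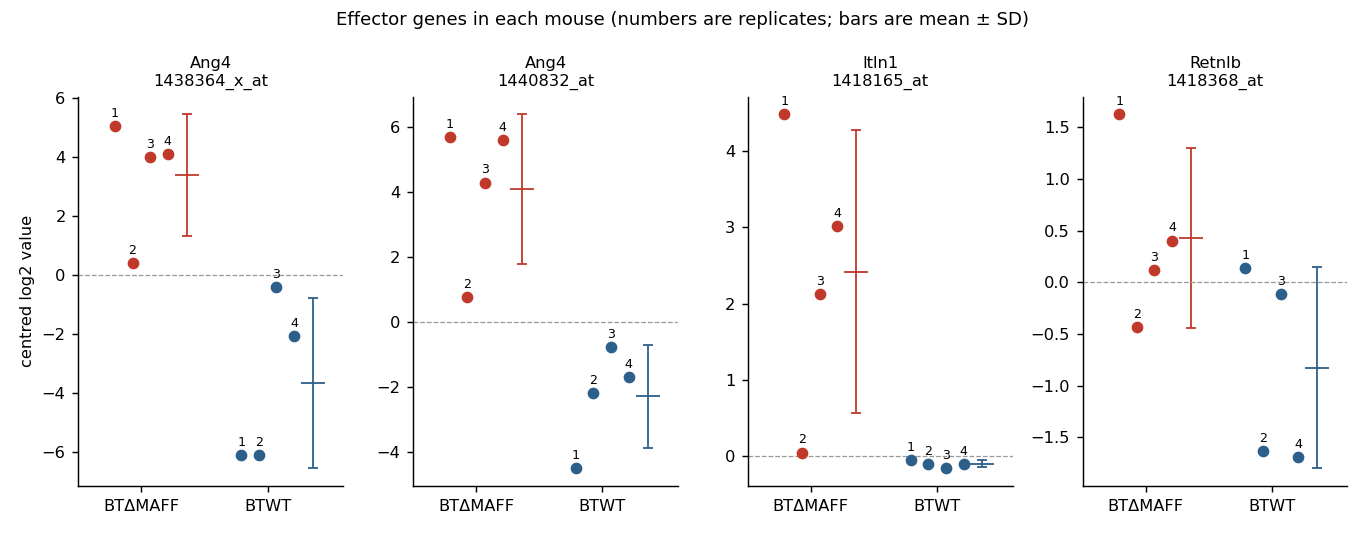
Centred log2 values (y axis, a separate scale in each panel) of the 4 effector probe sets in each mouse, BTΔMAFF in red at the left and BTWT in blue at the right of each panel. Numbers are replicates and bars show the mean ± SD of 4 mice. BTΔMAFF replicate 2 is the lowest of its group in all 4 panels, at 0.41 and 0.77 for Ang4, 0.05 for Itln1, and -0.43 for Retnlb.

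The 3 effector genes ranked the BTΔMAFF mice alike. In all 4 effector probe sets, replicate 1 was the highest, followed by replicate 4, replicate 3, and replicate 2, an order that 913 of 45037 probe sets (2.03%) had. The BTWT mice had no such common order: replicate 3 was the highest for Ang4 and replicate 1 was the highest for Itln1 and Retnlb. Over the 8 arrays, Pearson's r was 0.958 between the 2 Ang4 probe sets, 0.819 between Ang4 (1438364_x_at) and Itln1, 0.672 between Ang4 and Retnlb, and 0.792 between Itln1 and Retnlb. These correlations include the difference between the groups, and with each group centred on its own mean they were 0.838, 0.532, 0.352, and 0.633.

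Some genes followed Ang4 more closely than Itln1 did. Among 6000 genes whose values spanned at least 1 log2 unit, the 5 most like Ang4 over the 8 arrays were Hspa12a (r = 0.970), Clca1 (0.964), Toe1 (0.956), Dok4 (0.950), and Prkar2a (0.943), and Itln1 stood at place 61 and Retnlb at place 295. Hspa12a, an atypical member of the HSP70 family, was between 0.29 and 1.37 in BTΔMAFF mice and between -1.46 and -0.29 in BTWT mice, with the same order of mice as Ang4, and all 4 of its probe sets had a higher mean in BTΔMAFF. Clca1, a metalloprotease that goblet cells secrete into mucus, was at 0.54, 0.08, 0.36, and 0.32 in BTΔMAFF replicates 1 to 4 and at -0.77, -1.22, -0.08, and -0.23 in BTWT replicates 1 to 4. For both genes, the groups did not overlap and BTΔMAFF replicate 2 and BTWT replicate 3 were again the 2 middle mice. Toe1 and Prkar2a had other probe sets that did not share the sign of their difference (1 of 2 and 2 of 4 probe sets had it), and Dok4 had 1 probe set.

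The 5 genes most like Itln1 were Ano1 (r = 0.978), Sf3b1 (0.941), Arid2 (0.939), Mptx1 (0.938), and Zfp37 (0.925). Ano1, a calcium-activated chloride channel, was at 1.52, -0.02, 0.49, and 1.20 in BTΔMAFF replicates 1 to 4 and at 0.02, -0.08, -0.04, and -0.31 in BTWT replicates 1 to 4. Mptx1, a secreted pentraxin of the gut epithelium, was at 1.15, -0.33, 0.56, and 1.11 in BTΔMAFF replicates 1 to 4 and at 0.06, -0.54, -0.11, and -0.06 in BTWT replicates 1 to 4. In both genes, BTΔMAFF replicate 2 lay among the BTWT mice, so the groups overlapped. The 5 most like Retnlb were Slc25a32 (r = 0.966), Gpt2 (0.959), Ccnd2 (0.920), Pafah1b2 (0.914), and Lsm8 (0.911), and the groups overlapped in each of them. Only 1 of 3 Slc25a32, 1 of 4 Pafah1b2, and 1 of 2 Lsm8 probe sets had the sign of the difference used here. For Gpt2 it was 3 of 4 and for Ccnd2 6 of 7.

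**Figure D2:**
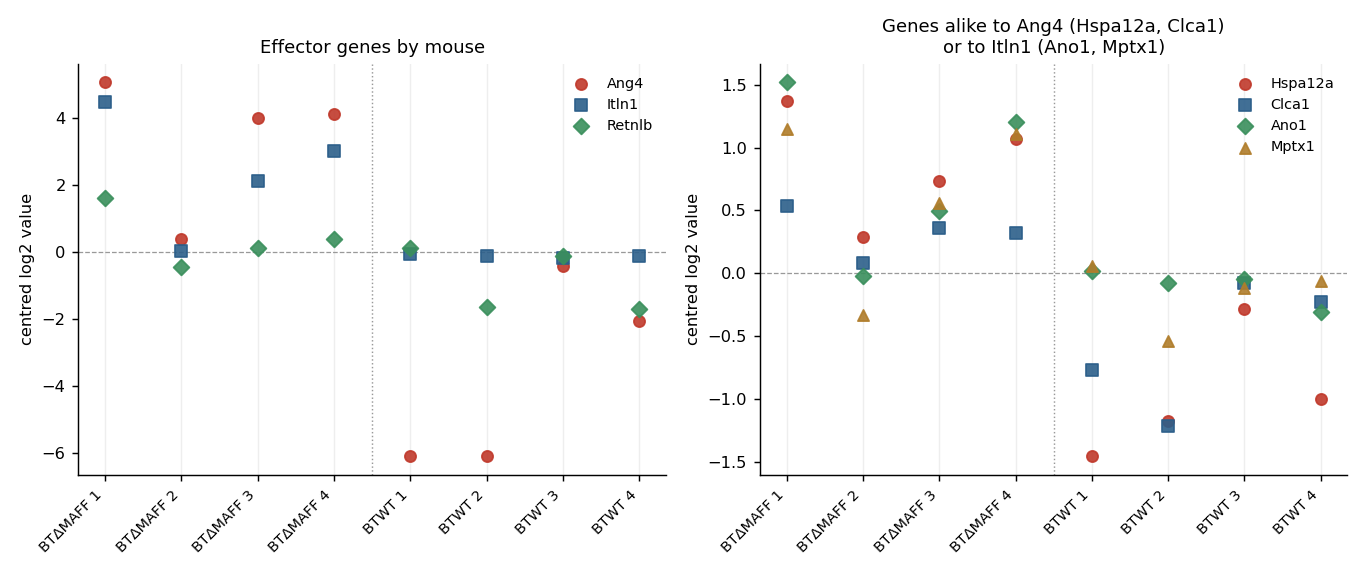
Centred log2 values (y axis) in each of the 8 mice (x axis, BTΔMAFF replicates 1 to 4 left of the dotted line and BTWT replicates 1 to 4 right of it). The left panel shows Ang4, Itln1, and Retnlb, and the right panel shows 2 genes alike to Ang4 (Hspa12a and Clca1) and 2 alike to Itln1 (Ano1 and Mptx1). In BTΔMAFF replicate 2 every gene shown is between -0.43 and 0.41, whereas in BTΔMAFF replicate 1 Ang4 is at 5.08 and Itln1 at 4.48.

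The receptor chains and Stat6 had groups that overlapped in every probe set. Of their 10 probe sets, 0 were without overlap (background 1.56% higher and 1.27% lower). The mean was higher in BTΔMAFF for 8 of them and lower for 2, with differences between -0.02 and 0.37 and a median of 0.07, beside a median of -0.02 over all probe sets.

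Il13ra1, the chain that binds IL-13, has 5 probe sets with differences of 0.33, 0.08, 0.08, 0.07, and -0.02. The largest was that of 1451775_s_at, which was at 0.56, 0.19, -0.12, and 0.16 in BTΔMAFF replicates 1 to 4 and at -0.24, 0.12, -0.12, and -0.30 in BTWT replicates 1 to 4, a difference of 0.33 (standard error 0.16). Here 3 of 4 BTΔMAFF mice were above every BTWT mouse and BTΔMAFF replicate 3 lay among them. The probe set of largest SD, 1427165_at, was at -0.05, 0.05, -0.69, and 0.41 in BTΔMAFF replicates 1 to 4 and at 0.24, 0.07, -0.52, and -0.39 in BTWT replicates 1 to 4, and the groups covered nearly the same range. The difference of 3 Il13ra1 probe sets (1427165_at, 1427164_at, and 1454783_at) changed sign when single arrays were left out, as did that of Il4ra 1423996_a_at and of Stat6 1426353_at.

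Il4ra, the chain shared by the IL-4 and IL-13 receptors, has 3 probe sets, and their differences were 0.06, 0.03, and -0.01. On 1421034_a_at it was at -0.01, -0.03, 0.97, and -0.65 in BTΔMAFF replicates 1 to 4 and at 0.01, 0.01, 0.15, and -0.14 in BTWT replicates 1 to 4. The highest and the lowest mouse of all 8 were both BTΔMAFF mice, and the difference of 0.06 (standard error 0.32) lay between -0.24 and 0.30 when single arrays were left out. The other probe sets of Il4ra spanned only 0.17 and 0.04 log2 units over the 8 mice, against a median span of 0.39 over all probe sets.

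Stat6, the transcription factor that both cytokines activate, has 2 probe sets. On 1421708_a_at it was at -0.08, 0.09, -0.08, and 0.91 in BTΔMAFF replicates 1 to 4 and at -0.62, 0.08, -0.35, and 0.26 in BTWT replicates 1 to 4, with a difference of 0.37 (standard error 0.29). The highest value was that of BTΔMAFF replicate 4, 1 of the arrays that stood apart, and without it the difference was 0.13. On 1426353_at the difference was 0.05 (standard error 0.15). The Pearson correlations of these genes with Ang4 over the 8 arrays were 0.43 for Stat6, 0.09 for Il4ra, and -0.19 for Il13ra1, each by its probe set of largest SD. STAT6 works through phosphorylation, which a transcript array does not measure.

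A flat probe set can still carry the level of its array. Il13ra1 1425625_at and Il4ra 1447858_x_at spanned 0.09 and 0.04 log2 units and correlated at r = 0.987 and 0.979 with the median value of all probe sets on each array, which lay between -0.03 and 0.04. For these probe sets, differences between mice were of the size of the differences between whole arrays. Whether their transcripts were above background cannot be read from centred values.

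**Figure D3:**
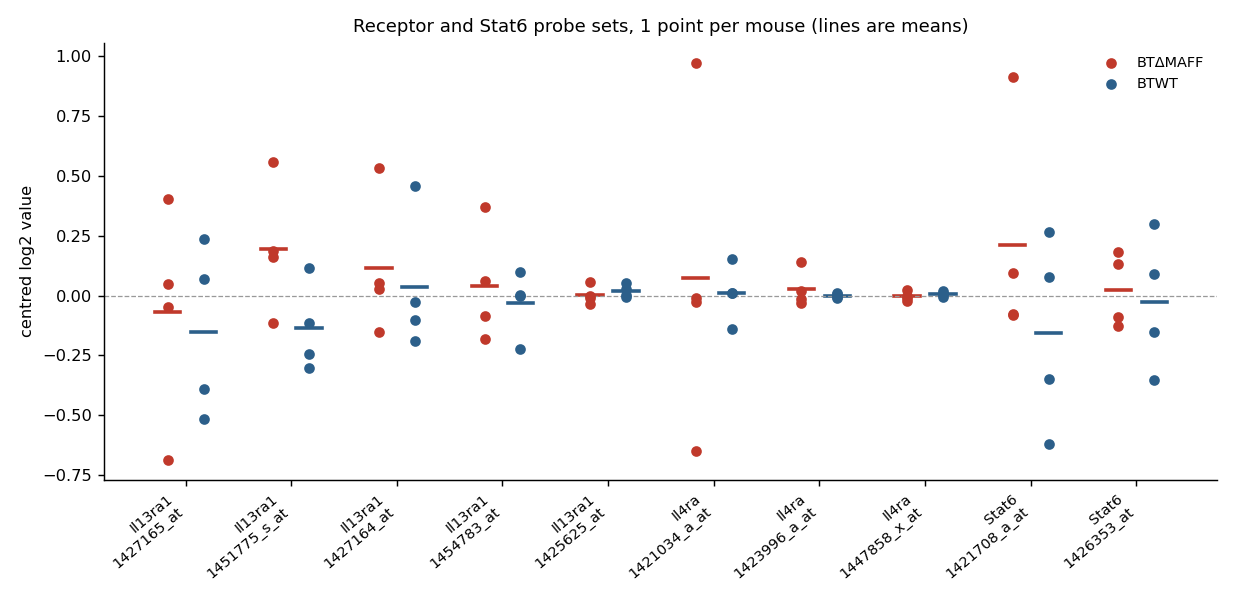
Centred log2 values (y axis) of the 10 probe sets of Il13ra1, Il4ra, and Stat6 (x axis), 1 point per mouse, with BTΔMAFF in red at the left of each pair and BTWT in blue at the right, and lines at the means of 4 mice. The groups overlap in all 10 probe sets, and 3 of them, 1425625_at, 1423996_a_at, and 1447858_x_at, span under 0.2 log2 units.

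Relatives of the effector genes did not share their differences. Of 9 other genes of the angiogenin and RNase A family, each represented by its probe set of largest SD, 0 were higher and 2 lower in BTΔMAFF at an unadjusted p under 0.05, against 3.37% and 2.35% of all genes. Ang, angiogenin itself and an inducer of blood vessel growth, was at -0.25, -0.09, -0.13, and -0.38 in BTΔMAFF replicates 1 to 4 and at 0.76, 0.09, 0.53, and 0.84 in BTWT replicates 1 to 4, so that the groups did not overlap. Its difference was -0.77 (standard error 0.17, unadjusted p = 0.00263, adjusted p = 0.436, limma), and all 3 of its probe sets had a lower mean in BTΔMAFF. Rnase4, a neighbour of Ang that shares its promoter, had a difference of -0.39 (standard error 0.10, unadjusted p = 0.00675), and its groups did not overlap. Ang2 had -0.25 (standard error 0.13) and Ang3 had 0.06 (standard error 0.07). Ang4 and Ang thus had differences of opposite sign.

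Of 7 other genes of the resistin family, the intelectins, and soluble lectins, 0 passed in either direction at an unadjusted p under 0.05. The shares of all genes were 3.37% higher and 2.35% lower. Retnla, which IL-4 and IL-13 induce in macrophages, had a difference of -0.01 (standard error 0.02), Retn, the adipokine resistin, had -0.01 (standard error 0.02), and Zg16, a goblet cell lectin that binds Gram-positive bacteria, had 0.17 (standard error 0.09).

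The cytokines upstream of the receptors were flat. Of 7 genes of type 2 cytokines and epithelial alarmins, 0 passed in either direction, against 3.37% and 2.35% of all genes. Their differences lay between -0.03 and -0.01. Over the 8 arrays each of the 7 probe sets spanned between 0.06 and 0.16 log2 units, and their values correlated with the array medians at r between 0.743 and 0.998. Whether their transcripts, including those of the alarmins, were above background is not known. Il13 was at -0.03, -0.01, -0.03, and 0.08 in BTΔMAFF replicates 1 to 4 and at 0.02, 0.07, 0.01, and -0.01 in BTWT replicates 1 to 4, with the highest values on the 2 arrays that stood apart. Il4, Il25, Il33, and Tslp had differences of -0.02, -0.01, -0.03, and -0.02. The cytokines are made mainly by leukocytes, which the sort was set to exclude, so these arrays hold no measure of how much IL-4 or IL-13 reached the epithelium.

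Of 27 other genes of the IL-4, IL-13, and alarmin receptors and their signalling, 2 were higher and 0 lower in BTΔMAFF at an unadjusted p under 0.05, or 7.41% and 0% against 3.37% and 2.35% of all genes. They were Jak2, a kinase of cytokine receptors, with 0.58 (standard error 0.24, unadjusted p = 0.0480), and Ncoa1, a coactivator of STAT6, with 0.45 (standard error 0.18, unadjusted p = 0.0432). The groups overlapped in both. When single arrays were left out, Jak2 passed in 3 and Ncoa1 in 1 of 8 fits. These counts take each gene by its probe set of largest SD, and other probe sets of Stat3, Ptpn1, and Socs2 passed unadjusted. Stat3 was higher by 0.42 (standard error 0.09) and 0.44 (standard error 0.08), and Ptpn1 by 0.37 (standard error 0.09), all without overlap. Their counted probe sets had 0.11 (standard error 0.35) and 0.35 (standard error 0.19). The remaining Stat3 probe set had -0.01 (standard error 0.03). Socs2 was lower, with -0.46 (standard error 0.12) and -0.63 (standard error 0.23) without overlap and -0.58 (standard error 0.19) with overlap. Its counted probe set had -0.69 (standard error 0.47) and did not pass, and its remaining probe sets had -0.03 and -0.15. Tyk2 and Jak1, the other kinases bound to the receptor, had 0.31 (standard error 0.29) and -0.20 (standard error 0.33). Il13ra2, the decoy receptor of IL-13, and Socs1, a feedback inhibitor of the pathway, had -0.02 (standard error 0.02) and -0.01 (standard error 0.02). Both were flat, with spans of 0.07 and 0.04 log2 units and r of 0.997 and 0.928 to the array medians, so their level above background is not known. Il2rg, the shared γ chain, was not found by symbol.

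Of 34 other genes known to respond to IL-13, IL-4, or STAT6, 3 were higher and 2 lower in BTΔMAFF at an unadjusted p under 0.05, or 8.82% and 5.88% against 3.37% and 2.35% of all genes. The 3 higher genes did not overlap between groups, as 1.56% of all probe sets did not in that direction, and they passed without any single array. The part of these cytokines in their differences was not tested. Fxyd4, a regulator of the sodium pump, was at 0.89, 0.39, 0.24, and 0.66 in BTΔMAFF replicates 1 to 4 and at -0.24, -1.24, -0.34, and -0.42 in BTWT replicates 1 to 4, a difference of 1.11 (standard error 0.25, unadjusted p = 0.00299). Clca1 had a difference of 0.90 (standard error 0.26, unadjusted p = 0.00994) on the probe set given above and 0.37 (standard error 0.07, unadjusted p = 0.00153) on the other. Fcgbp, a protein of the mucus layer, had 0.67 (standard error 0.14, unadjusted p = 0.00223). The lower genes were Agr2, a chaperone of mucin folding, with -0.55 (standard error 0.19, unadjusted p = 0.0230), and Tgm2, a transglutaminase, with -0.99 (standard error 0.41, unadjusted p = 0.0455) on its probe set of largest SD. Tgm2 was named after its values were seen, as the fifth gene of this count. The median difference of the 34 genes was -0.02, equal to that of all genes, and the adjusted p passed for 0 of them.

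**Figure D4:**
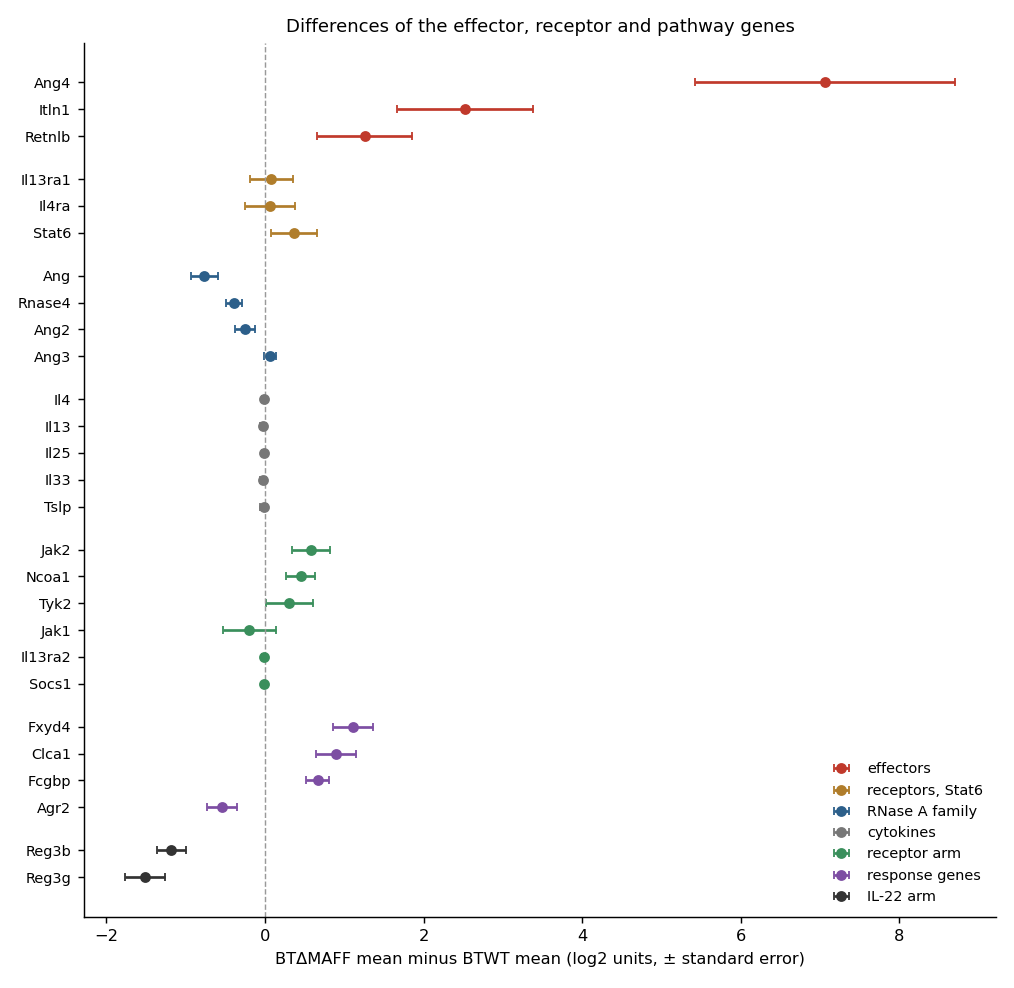
BTΔMAFF mean minus BTWT mean in log2 units (x axis) with its limma standard error for the effector genes, the receptors and Stat6, and named genes of related lists (y axis), each by its probe set of largest SD and with n = 4 mice per group. Ang4 lies at 7.06 and Itln1 at 2.52, the receptors between 0.06 and 0.37, the cytokines at 0 to within 0.03, and Ang at -0.77.

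Genes of the cells that make the effector proteins were measured as well. In bulk samples, fewer cells of a type and less RNA per cell cannot be told apart. Of 34 other goblet cell genes, 5 were higher in BTΔMAFF (Fcgbp, Clca1, Capn9, Bcas1, and Fer1l6) and 1 was lower (Agr2) at an unadjusted p under 0.05, or 14.7% and 2.94% against 3.37% and 2.35% of all genes. Fcgbp, Clca1, and Agr2 were also counted among the response genes above, so the counts of these lists are not separate. The median difference of the 34 genes was -0.01, and Muc2, the main mucin, had a difference of 0.15 (standard error 0.07). The mean of the 34 genes lay between -0.12 and 0.30 in BTΔMAFF mice and between -0.45 and 0.31 in BTWT mice. Within BTWT, replicates 2 and 4, the pair low for Retnlb, also had the lowest goblet cell means, at -0.45 and -0.20. Ang4 did not follow this mean, since BTWT replicates 1 and 2 were at -6.09 and -6.08 for Ang4 but at 0.31 and -0.45 for the goblet cell genes. The part of goblet cell number in these results was not tested.

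Of 20 other genes of Paneth and deep crypt secretory cells, 0 were higher and 1, the stress protein gene Nupr1, was lower in BTΔMAFF, with -0.59 (standard error 0.23, unadjusted p = 0.0369), or 0% and 5% against 3.37% and 2.35% of all genes. Mptx1, in the same list, had 0.78 (standard error 0.34, unadjusted p = 0.0553). Their mean lay between -0.15 and 0.47 in BTΔMAFF and between -0.15 and 0.28 in BTWT, and BTΔMAFF replicate 1, the highest for all effector genes, was also the highest here. Of 28 genes of tuft cells, the epithelial source of IL-25, 0 were higher and 1 was lower, Trpm5 with -0.46 (standard error 0.18, unadjusted p = 0.0398), or 0% and 3.57% against the same shares of all genes. The mean of the tuft cell genes lay between -0.11 and 0.08 in BTΔMAFF and between -0.05 and 0.12 in BTWT.

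Of 12 genes of the IL-22 receptor arm of epithelial defense, 0 were higher and 2 lower in BTΔMAFF at an unadjusted p under 0.05, or 0% and 16.7% against 3.37% and 2.35% of all genes. The 2 were Reg3b and Reg3g, antimicrobial lectins, which were lower in BTΔMAFF in each mouse than in any BTWT mouse, opposite to Ang4 and Itln1. Their differences were -1.18 (standard error 0.18, unadjusted p = 3.65e-04) and -1.51 (standard error 0.25, unadjusted p = 5.47e-04), and both had the highest value of BTΔMAFF in replicate 1, as Ang4 had. The receptor chains Il10rb and Il22ra1 had positive differences, of 0.53 (standard error 0.28) and 0.22 (standard error 0.11), and did not pass. Stat3, also in this list, was counted by its probe set of largest SD, with 0.11 (standard error 0.35), and did not pass. Other probe sets of Stat3 were higher in BTΔMAFF without overlap and passed unadjusted, with 0.42 (standard error 0.09) and 0.44 (standard error 0.08). The remaining one had -0.01 (standard error 0.03).

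The sorted cells were checked by genes of other cells. Of 58 genes of leukocytes or of stromal, endothelial, muscle, and nerve cells, 0 were higher and 2 lower in BTΔMAFF at an unadjusted p under 0.05 (Cd14 with -1.14 and Pdgfrb with -1.16), or 0% and 3.45% against 3.37% and 2.35% of all genes. Pdgfrb had this sign on 1 of its 2 probe sets. The stromal genes Col3a1, Dcn, and Col1a1 had differences of the other sign, of 1.14, 1.03, and 0.77, and did not pass. For Col3a1 and Dcn, too, 1 of 2 probe sets had that sign. The mean of the 34 leukocyte genes lay between -0.04 and 0.12 in BTΔMAFF and between 0.01 and 0.14 in BTWT, and that of the 24 genes of the other cells lay between -0.02 and 0.29 in BTΔMAFF and between -0.13 and 0.13 in BTWT. BTΔMAFF replicate 2, the low mouse of its group for Ang4, Itln1, and Retnlb, had the highest of these stromal means, at 0.29, with Col1a1 at 2.03 and Dcn at 1.80. Of 14 epithelial genes, 3 were higher in BTΔMAFF (Vil1 with 0.40, Krt20 with 0.32, and Krt19 with 0.22) and 0 were lower, or 21.4% and 0% against 3.37% and 2.35% of all genes. The median difference of the 14 genes was 0.17, beside -0.02 over all genes, and their mean was 0.09 ± 0.11 in BTΔMAFF and -0.08 ± 0.11 in BTWT (SD, n = 4 each). Epcam had -0.10 (standard error 0.23) on its probe set of largest SD and 0.04 (standard error 0.04) on the other. Because the values are centred, which of these markers were at background is not known. Of 17 genes of position along the gut, 2 were higher in BTΔMAFF, Hoxb13 with 0.83 (standard error 0.18, unadjusted p = 0.00259) and Hoxa13 with 0.77 (standard error 0.24, unadjusted p = 0.0138), both of which mark the distal colon. These were 11.8% of the list against 3.37% of all genes, and 0 were lower. The median difference of the 17 genes was -0.02, beside -0.02 over all genes. The groups overlapped in Hoxa13. Hoxa9 had 0.58 (standard error 0.41) and Hoxd8 had -0.67 (standard error 0.45), and neither passed. Hoxb13 was at 0.38, 0.31, 0.22, and 0.36 in BTΔMAFF replicates 1 to 4 and at -0.22, -1.05, -0.25, and -0.55 in BTWT replicates 1 to 4, without overlap. The parts of other cells and of the sampled stretch of colon in the difference of Ang4 were not tested.

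RNA integrity was compared through the control probe sets of Gapdh, whose 3-prime value minus 5-prime value was 0.01 ± 0.16 in BTΔMAFF and -0.11 ± 0.14 in BTWT (SD, n = 4 each, two-sided exact permutation test, p = 0.314). The same value for the beta-actin controls was 0.03 ± 0.05 in BTΔMAFF and -0.04 ± 0.02 in BTWT (SD, n = 4 each, two-sided exact permutation test, p = 0.0857), and its part in the results was not tested. The control probe sets are centred too, so these values compare the arrays with each other and do not measure how intact the RNA was.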

How the data were processed

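Gene expression was measured with Affymetrix mouse genome arrays hybridized with amplified cDNA of sorted colonic epithelial cells, 1 array per mouse. The authors deposited log2 values with the 8-array median of every probe set at 0, and the labels name Affymetrix Expression Console. How probes were summarized, corrected for background, and normalized is not given in the sources used here, and the number of arrays limits the precision.

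Arrays were grouped by their labels into BTΔMAFF (4) and BTWT (4). Without 64 Affymetrix controls, 45037 probe sets entered a limma 3.58.1 fit in R 4.3.3 (lmFit and eBayes) of BTΔMAFF minus BTWT without covariates, and p-values were adjusted by Benjamini-Hochberg with a threshold of 0.05. A gene was represented by its probe set of largest SD. Fold changes are 2 to the power of the difference. The procedure was tested on simulated data. The 6 genes and all lists were chosen with earlier results of these data known. Named genes were all 6 genes, up to 4 of smallest p in each list, 16 pathway and marker genes shown whether or not they differed, and the 5 most like each effector gene by Pearson's r. Tgm2, Bcas1, Fer1l6, Stat3, Ptpn1, and Socs2 were named outside this rule, after their values were seen. Single values per array were compared with an exact permutation test (scipy 1.17.1). Promoter sequences came from RefSeq (GRCm38.p6).

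Alternatives were quantile normalization, subtracting array medians, weighting arrays, blocking on the replicate number, leaving out each array or both arrays that stood apart, the methods' test, a robust prior, and a filter on SD.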

Additional observations from a re-analysis of the deposited data

Results flagged for a closer look

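For the effector genes, the receptors, and Stat6, 0 arrays lay far from the other 3 of their group by Dixon's test. Among the other named genes, 1 BTΔMAFF mouse did in 5 of 174 groups tested in all, and chance alone gives about 1 in 20. These were Jak1 at -1.22 in BTΔMAFF replicate 4 (the others between -0.03 and 0.21), Tslp at 0.13 in BTΔMAFF replicate 4 (the others between -0.03 and -0.01), and Retn at 0.027 in BTΔMAFF replicate 4 (the others between -0.02 and -0.01). Tslp and Retn correlated with the array medians at r = 0.95 and 0.97, and BTΔMAFF replicate 4 had the highest array median, 0.04. The tuft cell gene Sh2d6 was at 1.50 in BTΔMAFF replicate 1 (the others between 0.00 and 0.18), the mouse highest for Ang4, and the macrophage gene Csf1r was at 1.75 in BTΔMAFF replicate 3 (the others between -0.01 and 0.29).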

How the results depend on the processing

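All 52 differences of the effector probe sets under alternatives stayed above 0. Array weights moved those of Ang4 to 3.74 and 3.91 and that of Il4ra 1423996_a_at to 0.089. That of Il4ra 1447858_x_at was 0.014 after quantile normalization and 0.0079 after centring arrays on their medians, against -0.010. The 0 probe sets past the adjusted threshold became 510 with array weights, 25 among the probe sets of larger SD, 2 without both arrays that stood apart, 1 with centred arrays, and 0 to 6 without single arrays (6 without BTΔMAFF replicate 4). At an unadjusted p, the 2295 probe sets became 11533 with array weights, 4745 without both arrays, and 1774 to 4497 without single arrays. The 247 probe sets with a fold change over 2 as well became 676 with array weights. The 7 type 2 pathway genes, 8 secretory cell genes, and 2 genes of other cells became 16, 19, and 16 with array weights and 4, 4, and 1 with the methods' test. Without single arrays they numbered 3 to 9 (3 without BTWT replicate 1), 3 to 10 (3 without BTWT replicate 1), and 1 to 5 (5 without BTΔMAFF replicate 4), and the genes of other cells were 6 without both arrays. The causes were not tested. Agr2 did not pass without BTWT replicate 1 or 2, and Jak2, Ncoa1, Tgm2, Bcas1, Fer1l6, Nupr1, Trpm5, Cd14, and Krt19 each did not pass in at least 4 of 8 fits without a single array. With array weights, Clca1 (unadjusted p = 0.0507) and Hoxa13 (0.381) did not pass, and without both arrays Capn9 (0.0734) and Hoxa13 did not. The labels do not say whether mice of the same replicate number were paired. The correlation of deviations between same-numbered mice was 0.39, -0.04, 0.03, and -0.27, and between other mice of the 2 groups it lay between -0.39 and 0.46. So few values cannot show or exclude pairing. With the replicate number as a block, 0 probe sets passed the adjusted threshold, 242 the fold change with the unadjusted p, and 2748 the unadjusted p alone. Levels above background are unknown for all probe sets.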
